A study of Mus musculus with 4 samples.

Results

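Immune cells of Lewis lung carcinoma tumors were set against immune cells of normal lung in mice that lack Rab37, a small GTPase of vesicle trafficking and secretion. The comparison held 7455 of the 13344 cells of the series that had at least 200 detected genes and at most 10% mitochondrial UMIs (unique molecular identifiers, each standing for 1 captured mRNA). Of these, 4726 came from the normal library and 2729 from the tumor library. Both libraries were live CD45+ cells sorted from Rab37 KO C57BL/6 mice on day 14 after tumor establishment. The normal lung had received Matrigel and the tumor lung had received LLC cells, the cells of Lewis lung carcinoma. The series also holds WT mice under the same pair of treatments, and it asks how Rab37 bears on secretion of OPN, the product of Spp1, and on macrophages that express it. Age, sex and the number of animals behind each library were not given in the labels.

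Lung holds resident alveolar macrophages, which live in the airspace and clear surfactant, beside lymphocytes, dendritic cells and monocytes that circulate or patrol. Tumors draw in neutrophils and monocytes from blood, and low oxygen and lactate in a tumor are known to turn on genes of glycolysis through the factor HIF-1. Arginase 1, the product of Arg1, is a known product of such myeloid cells and breaks down arginine, which T cells need.

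Each group was 1 library, so no test was made and no p-value is given. Intervals are 95% intervals for counting error alone, exact Poisson for a level, exact conditional binomial for a ratio and exact Clopper-Pearson for a share of cells. A level is the UMIs of a gene summed over cells, as a count scaled to the same total of summed UMIs in every library (CPM). A gene was tested with at least 100 CPM in the higher library and at least 20 UMIs over both, and was called at a 2-fold difference. Cells were assigned to a lineage gate by at least 1 UMI of 1 gate gene and none of the others: Cd3e for T cells, Cd79a for B cells, Ncr1 for NK cells, Csf3r for neutrophils, Flt3 for dendritic cells and Plet1 for alveolar macrophages. A further gate took cells with Csf1r, the receptor of a macrophage growth factor, and none of the 6 gate genes. In sums over cells, fewer cells of a type and less RNA per cell cannot be told apart. Tissue, library and software version cannot be told apart either, and the sex of the cells only in the values within Y-positive cells.

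The libraries differed in several ways beside tissue. The normal library summed to 34750859 UMIs with a median of 5525 per cell, and the tumor library to 30120672 UMIs with a median of 6566. Ribosomal protein genes took 24.1% of the normal UMIs and 14.3% of the tumor UMIs. Among cells with sex-linked transcripts, 1641 normal cells held only Y-linked UMIs and 1564 only Xist, against 1666 and 33 in the tumor. The normal library thus mixed male and female cells and the tumor library was nearly all male, so counts within Y-positive cells are given beside the main ones. Rhox5 or Hmga2, genes presumed to mark the injected carcinoma, had a UMI in 7 normal and 92 tumor cells. The 2 libraries shared 2 cell barcodes, 0.0653% of the smaller set. Rab37 itself had 13 UMIs in normal (0.374 CPM, 0.199 to 0.64) and 8 in tumor (0.266 CPM, 0.115 to 0.523), against 314 UMIs (8.60 CPM) in normal lung of WT mice. A 3' count says nothing on a deletion upstream of the counted end.

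The Csf3r gate was the largest gate of the tumor library, and few tumor cells fell in the lymphocyte gates. Csf3r-gated cells were 14.4% of normal cells (13.4 to 15.4, 679 cells) and 57.1% of tumor cells (55.2 to 59.0, 1558 cells). These shares depended on the gate rule. With at least 2 UMIs required they were 10.7% in normal and 48.3% in tumor. With Csf1r-positive cells left out they were 9.54% and 32.7%, so a majority of neutrophils in the tumor library was not shown. Cd3e-gated cells were 26.5% in normal (25.3 to 27.8, 1253 cells) and 2.90% in tumor (2.30 to 3.6, 79 cells). Cd79a-gated cells were 13.7% and 2.82% (646 and 77 cells), and Ncr1-gated cells 4.49% and 1.72% (212 and 47 cells). Among myeloid gates, Plet1-gated cells were 12.8% in normal and 7.99% in tumor (603 and 218 cells), Flt3-gated cells 1.57% and 0.989% (74 and 27 cells), and Csf1r-gated cells 3.77% and 8.28% (178 and 226 cells). The CD45 sort and tissue digestion set these shares as well as the tissue, and their part was not tested. Median UMIs per cell also differed by gate: Csf3r-gated cells had 2920 in normal and 5494 in tumor, while Cd3e-gated cells had 5654 and 5317.

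**Figure D1:**
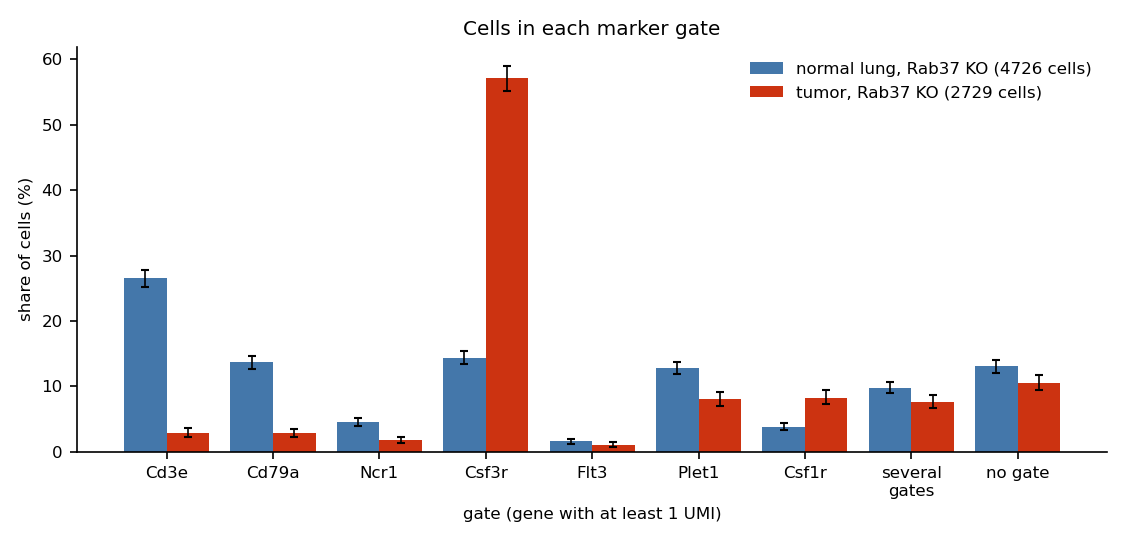
Share of cells in each lineage gate, in percent of all filtered cells, for the normal (blue) and tumor (red) Rab37 KO libraries. Bars start at 0 and whiskers are 95% Clopper-Pearson intervals; the Csf3r gate stands at 14.4% and 57.1% and the Cd3e gate at 26.5% and 2.90%.

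The gates were checked against marker lists. For each gate the 10 genes that set it most apart were taken. In both libraries the T, B, NK, neutrophil and alveolar macrophage gates held at least 3 of their own markers among them. None was a listed marker of another class. The lists hold the gate genes, so a gate gene could count as a match. In the normal Plet1 gate the 3 were Krt79, Atp6v0d2 and Plet1 itself, and the airway gene Bpifa1 led its 10 genes. Among its 10 genes the Flt3 gate of the tumor held 1 of its markers, Cd209a, so its 27 cells carry the name of their gate gene only. The Csf1r gate failed in the normal library, where its leading genes included the airway gene Scgb1a1 and no marker of its own, and it is described by its gate gene. Some tumor cells in the lymphoid gates also held RNA of other lineages. In the tumor Cd79a gate the sum of 5 presumed carcinoma markers was 886 CPM against 14.4 in normal, with Rhox5, Hmga2 and Peg10 at 0 in normal. The neutrophil markers there summed to 2166 CPM in tumor and 240.7 in normal, with 4 of 7 higher. In the Ncr1 gate 5 erythroid genes summed to 8930 CPM in tumor and 10.6 in normal. Values without mixed cells, defined by the myeloid genes Lyz2, Csf1r, Itgam and Cd68 or by Rhox5 and Hmga2, are therefore given in parallel. No erythroid gene was part of that rule, so cells with erythroid RNA were not left out for it. Left out were 15 of 79 tumor cells of the Cd3e gate, 13 of 77 of the Cd79a gate and 4 of 47 of the Ncr1 gate, and 36, 26 and 5 cells in normal.

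Over all cells, Arg1, Saa3 and Cxcl3 led the ranked genes above normal in the tumor, and the lower side held airway secretory genes and lymphocyte genes such as Ccr7 and Cd3d. Of 1669 tested genes, 235 were called higher (14.1%) and 155 lower (9.29%). Arg1 stood at 3.02 CPM in normal (2.47 to 3.66) and 1163 CPM in tumor (1150 to 1175), a ratio of 385 (318 to 471), with a UMI in 44 normal cells and 887 tumor cells. Of the tumor's Arg1 UMIs, 57.4% lay in Csf3r-gated and 13.5% in Csf1r-gated cells. The acute phase gene Saa3 was 58.1-fold higher (51.3 to 66) and the neutrophil attractant Cxcl3 46.6-fold (44.5 to 48.9). Ifitm1, an interferon-inducible membrane protein, went from 96.3 to 2986 CPM, and Wfdc17, a small secreted protease inhibitor-like protein, from 126 to 3477 CPM, 27.7-fold (26.9 to 28.6). Bnip3, a mitophagy gene under HIF-1, was 17.8-fold higher (16.1 to 19.8). The remaining genes of the top 10 were Upp1 (27.3-fold), Vcan (25.3-fold), Lrg1 (23.5-fold) and Pf4 (20.8-fold). Spp1, the osteopontin gene, stood at 213 CPM in normal and 1274 CPM in tumor, 5.99-fold higher (5.84 to 6.14), with a UMI in 16.7% and 49.6% of cells.

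Ccr7, the receptor that takes lymphocytes to lymph nodes, stood at 206 CPM in normal and 18.1 CPM in tumor, 11.4-fold lower (10.4 to 12.4). Cd3d of the T cell receptor complex was 8.32-fold lower, Gimap6 7.34-fold, the thymocyte and T cell chromatin organizer Satb1 7.18-fold and Ms4a4b 6.5-fold. The airway and alveolar secretory genes rested on few cells: Bpifa1 was 665-fold lower with 86.0% of its normal UMIs in 1 cell, and Scgb3a2 220-fold and the surfactant gene Sftpc 53.1-fold lower. Scgb1a1, the club cell secretory protein, stood at 1878 CPM in normal with a UMI in 48.2% of cells and at 41.5 CPM in tumor with a UMI in 19.8%. Mgp was 50.9-fold lower, with 75.9% of its tumor UMIs in 1 cell. When tumor gate sums were weighted to the cell shares of the normal library, 89 of 1618 genes were called higher and 55 lower, and Arg1 was still 253-fold higher, Spp1 4.06-fold higher and Hspa1b at 0.195 of normal. Within Y-positive cells 256 genes were called higher and 172 lower.

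**Figure D2:**
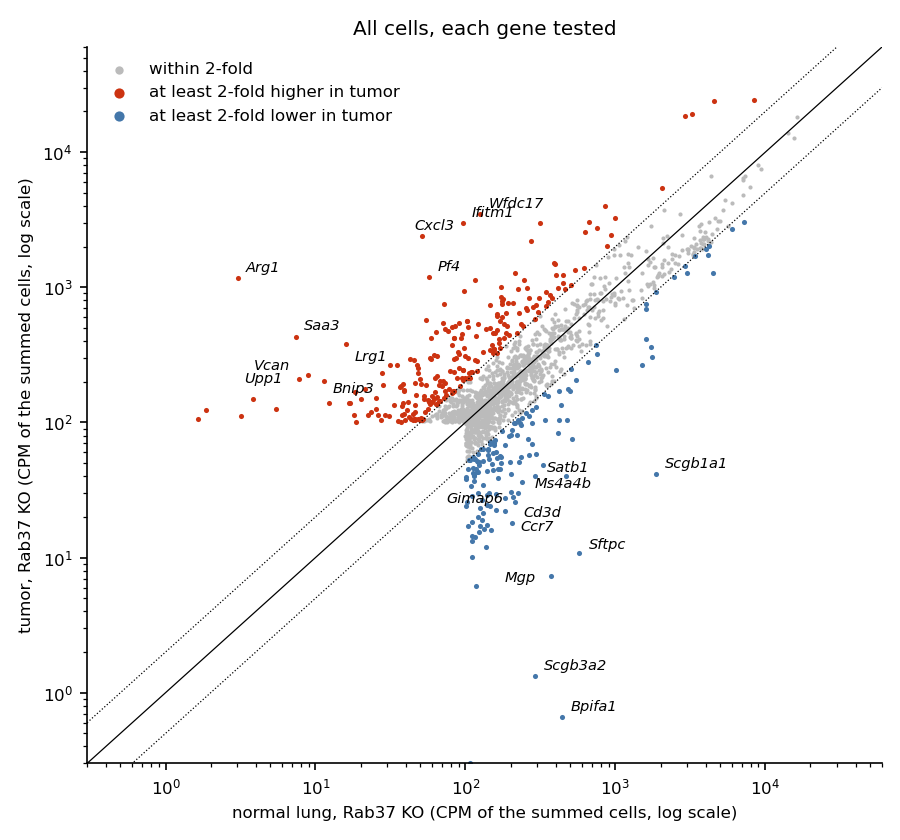
Level of each tested gene over all cells in the normal (x axis) and tumor (y axis) Rab37 KO libraries, in CPM on log axes, with the ranked genes named and genes at 0 drawn at the axis floor. Arg1 lies far above the diagonal at 3.02 and 1163 CPM, and Bpifa1 far below it at 441 and 0.664 CPM.

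Csf3r-gated cells of the tumor were higher in hypoxia genes, chemokines and Arg1, while the summed level of mature neutrophil genes was close to that of normal. Of 1516 tested genes, 136 were called higher (8.97%) and 115 lower (7.59%). The 13 genes of the mature neutrophil list summed to 84240 CPM in normal and 83360 CPM in tumor. Of these, 2 were at least 1.5-fold higher and 2 lower, against 31.1% and 15% of all measured genes. The list had a median log2 ratio of -0.22. The calgranulin genes S100a8 and S100a9 had ratios of 1.05 and 0.947, and Cxcr2, a receptor for CXC chemokines, 0.988; these 3 were chosen after their values were seen. Arg1 stood at 6.19 CPM in normal (3.67 to 9.78) and 1371 CPM in tumor (1352 to 1390), a ratio of 222 (140 to 374), with a UMI in 3 of 679 and 488 of 1558 cells. Wfdc17 went from 612 to 5708 CPM, 9.33-fold higher (8.90 to 9.78), with a UMI in 39.5% and 96.9% of cells. Chemokines followed: Cxcl3 was 8.28-fold higher (425 to 3520 CPM), the monocyte attractants Ccl7 35.6-fold (21.9 to 62.3) and Ccl2 4.45-fold (132 to 586 CPM), and the platelet-type chemokine Pf4 11.2-fold (10.1 to 12.4). Saa3 was 25.3-fold higher, and 1 tumor cell held 16% of its UMIs. Spp1 was 3.08-fold higher (484 to 1494 CPM, ratio interval 2.92 to 3.26), with a UMI in 15.6% and 45.7% of cells. Thinned to 1000 UMIs per cell, the Spp1 shares were 11.6% and 27.4%, against 0.775% and 7.79% in the Cd79a gate, whose median depths were 3966 and 3494 UMIs.

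All 21 genes of the hypoxia and glycolysis list were at least 1.5-fold higher in Csf3r-gated tumor cells, with a median log2 ratio of 1.93, against 31.1% of all 12243 measured genes and a median of 0.20. Bnip3 was 12.6-fold higher (20.3 to 256 CPM, ratio interval 9.74 to 16.6) with a UMI in 7.51% and 51.1% of cells. The triose phosphate isomerase gene Tpi1 was 8.26-fold higher (65.0 to 537 CPM), the endoplasmic oxidase Ero1l 7.64-fold, and Egln3, an oxygen sensor that is itself a HIF target, 6.41-fold. Ldha, the lactate dehydrogenase gene, was 4.44-fold higher (237 to 1053 CPM); it is named for its promoter and was chosen after its values were seen. Outside this list, the cytokine Mif was 10.7-fold higher (71.2 to 762 CPM) and the lipid droplet gene Hilpda 6.18-fold (87.3 to 540 CPM). The metallothionein genes Mt1 and Mt2, which bind zinc, were 5.50-fold and 7.59-fold higher.

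The promoters of the hypoxia and glycolysis list were searched for the letters ACGTG, the core of the HIF-1 response element, on both strands from 250 bases before to 50 bases after the first listed RefSeq start of a gene. Of 19 genes of the list with a promoter in the table, 10 held a match (52.6%), against 5315 of 27025 genes (19.7%). Over every listed start, a search chosen after seeing the data, 13 of the 19 did (68.4%), against 21.8% of all genes. The AP-1 letters TGANTCA, which share no full match with ACGTG, were searched in the same way and were in 0 of the 19 and in 2144 of all genes (7.93%) at the first start, and in 1 of the 19 over every start. Base composition was not matched, and a match is a description of the letters and not a bound site. Shown in capitals are the matches in 3 members whose levels are given here, Ldha, Bnip3 and the phosphoglycerate mutase gene Pgam1, from RefSeq on GRCm38.p6. The Ldha window is chr7:46845554-46845853 on the plus strand with 5 matches, counted on both strands, so that a palindrome counts for each. The Bnip3 window is chr7:138909457-138909756 on the minus strand with 2 matches, and the Pgam1 window chr19:41911621-41911920 on the plus strand with 1.
Ldha: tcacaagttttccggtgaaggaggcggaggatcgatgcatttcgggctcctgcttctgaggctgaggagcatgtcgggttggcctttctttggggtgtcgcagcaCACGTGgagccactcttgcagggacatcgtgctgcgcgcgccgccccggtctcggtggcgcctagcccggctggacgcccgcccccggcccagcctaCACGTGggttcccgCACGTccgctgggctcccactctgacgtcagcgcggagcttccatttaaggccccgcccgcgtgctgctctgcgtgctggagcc
Bnip3: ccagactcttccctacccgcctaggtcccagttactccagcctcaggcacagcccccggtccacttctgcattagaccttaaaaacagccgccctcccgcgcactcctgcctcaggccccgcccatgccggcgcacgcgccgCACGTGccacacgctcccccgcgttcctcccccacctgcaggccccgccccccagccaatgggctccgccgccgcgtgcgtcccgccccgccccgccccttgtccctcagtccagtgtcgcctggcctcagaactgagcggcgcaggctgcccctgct
Pgam1: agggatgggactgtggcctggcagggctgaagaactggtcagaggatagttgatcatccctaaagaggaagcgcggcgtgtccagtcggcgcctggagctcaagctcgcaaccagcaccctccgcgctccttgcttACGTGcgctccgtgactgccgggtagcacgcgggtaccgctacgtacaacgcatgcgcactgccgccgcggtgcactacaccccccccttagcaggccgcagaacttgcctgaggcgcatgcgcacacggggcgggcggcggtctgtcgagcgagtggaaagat

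Csf3r-gated tumor cells were lower in genes of heat shock, antigen presentation and interferon response, and in Cd83 and Pou2f2. Cd83, a surface protein of activated antigen-presenting cells, stood at 208 CPM in normal and 22.2 CPM in tumor, 9.35-fold lower (8.16 to 10.7), and the transcription factor Pou2f2 was 8.12-fold lower (264 to 32.5 CPM). Of 11 heat shock genes 8 were at least 1.5-fold lower and 0 higher, against 15% of all measured genes. The inducible HSP70 genes Hspa1b and Hspa1a were 6.54-fold (6.28 to 6.82) and 4.79-fold lower. Csf1, a macrophage growth factor, was 3.87-fold lower (330 to 85.4 CPM), the integrin subunit gene Itgal 3.26-fold (549 to 169 CPM) and Cxcr4, the receptor that holds neutrophils in bone marrow, 2.92-fold (864 to 296 CPM, fold interval 2.78 to 3.07). Of 15 interferon response genes 7 were at least 1.5-fold lower and 0 higher, among them Isg15 (3.53-fold) and Irf7 (2.84-fold). Of 10 MHC class II genes 9 were lower, and of 12 MHC class I genes 6, among them the nonclassical H2-Q7 (4.37-fold) and B2m, the shared light chain (1.96-fold). Granule genes differed less, and the list summed to 11120 CPM in normal and 10420 CPM in tumor. By the 1.5-fold rule, 6 of its 13 measured members rose, 1 fell and 6 lay between. Mmp8 was 2.23-fold higher, Lcn2 1.59-fold and lactoferrin Ltf 1.56-fold. Ltf had a UMI in 1.62% and 6.87% of cells, 1.19% and 3.68% after thinning. Cd177, a neutrophil surface glycoprotein, was 3.19-fold higher, and 12 of 15 cell cycle genes were at least 1.5-fold higher, against 31.1% of all measured genes. With gates that were not exclusive the cell cycle list turned, to a median log2 ratio of -0.23 from 1.41.

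Cells with Csf1r took part in this gate: Csf1r had a UMI in 33.6% of normal and 42.7% of tumor Csf3r-gated cells (14.8% and 10.8% after thinning, against 1.40% and 2.60% in the Cd79a gate). Without them 134 genes were called higher and 139 lower of 1333. Wfdc17 was then 11.2-fold, Mif 11.2-fold, Bnip3 9.99-fold and Cxcl3 7.15-fold higher. Arg1 moved to 27.0-fold, Pf4 to 20.3-fold, Dab2 from 10.8-fold to 17-fold and Ccl7 to 14.2-fold. On the lower side Cd83 stood at 0.223 and Csf1 at 0.208 of normal, while Pou2f2 moved to 0.401, Hspa1b to 0.711 and Hspa1a to 0.789. The hypoxia list kept a median log2 ratio of 1.73. Within Y-positive cells 155 genes were called higher and 113 lower. Markers of other lineages also differed in the gate: the platelet list, which holds Pf4, summed to 136 CPM in normal and 1586 CPM in tumor, the erythroid list to 33.7 and 497 CPM and the monocyte or macrophage list to 1511 and 1681 CPM. Beyond the values without Csf1r-positive cells, their part was not tested.

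Csf1r-gated cells of the tumor were higher in Arg1, Spp1 and the genes listed for SPP1 macrophages, and lower in genes of nonclassical, patrolling monocytes. Of 1681 tested genes, 179 were called higher (10.6%) and 153 lower (9.1%). Arg1 stood at 5.64 CPM in normal (2.27 to 11.6) and 1880 CPM in tumor (1827 to 1934), a ratio of 334 (162 to 830), with a UMI in 2 of 178 and 130 of 226 cells. Spp1 stood at 12.1 CPM (6.76 to 19.9) and 1486 CPM (1439 to 1534), a ratio of 123 (74.5 to 220). It had a UMI in 4.49% and 54.0% of cells, 1.14% and 29.0% after thinning, at median depths of 6188 and 9200 UMIs; in the Cd79a gate the thinned shares were 0.775% and 7.79%. Of 15 genes of the SPP1 macrophage program 12 were at least 1.5-fold higher and 1 was lower, and the list had a median log2 ratio of 1.84 against 0.09 over all measured genes, of which 23.8% were higher. Among them were the lysosomal glycoprotein Gpnmb (17.8-fold, 10.5 to 32.9), the elastase Mmp12 (7.69-fold) and the lysosomal protease Ctsd (254 to 1879 CPM, 7.38-fold). All 21 hypoxia and glycolysis genes were at least 1.5-fold higher, with a median log2 ratio of 2.35, including Bnip3 at 22.6-fold and Tpi1 at 7.58-fold. The chemokine Cxcl2 stood at 2580 CPM in normal and 10820 CPM in tumor, 4.20-fold higher (4.04 to 4.35).

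All 10 genes of the nonclassical monocyte list were at least 1.5-fold lower in Csf1r-gated tumor cells, with a median log2 ratio of -2.46, against 18.2% of all measured genes. Ace, the angiotensin converting enzyme carried by patrolling monocytes, stood at 231 CPM in normal and 31.3 CPM in tumor, 7.38-fold lower (5.73 to 9.59), with a UMI in 43.3% and 13.3% of cells (20.6% and 4.02% after thinning). Spn, the sialophorin CD43, was 6.27-fold lower, Itgal 5.67-fold and the enolase gene Eno3 7.42-fold. Cd83 was 10.7-fold lower (589 to 55.1 CPM, fold interval 8.91 to 12.9). The scavenger receptor Cd163 was 11.9-fold and the fractalkine receptor Cx3cr1 2.02-fold lower, while Mrc1, the mannose receptor, was 3.93-fold higher. Heat shock genes were lower for 10 of 11, with Hspa1b at 4179 CPM in normal and 443 CPM in tumor, and 11 of 14 interferon response genes were lower. The airway genes Scgb1a1 and Scgb3a1 and the plasma cell gene Jchain also ranked among the lower ones, and 1 normal cell held at least 99% of the UMIs of each; without it Scgb1a1 stood at 0.236 of normal. Within Y-positive cells 196 genes were called higher and 150 lower. The gate's neutrophil markers summed to 723 CPM in normal and 4170 CPM in tumor and its platelet markers to 386 and 2152 CPM; their part in these differences was not tested.

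Plet1-gated cells had the smallest share of called genes of the 7 gates, and their alveolar macrophage genes stood at the same summed level in both libraries. Of 1728 tested genes, 17 were called higher (0.984%) and 44 lower (2.55%), and 24 and 38 within Y-positive cells. The 19 identity genes summed to 26140 CPM in normal and 26120 CPM in tumor, with a median log2 ratio of -0.05. By the 1.5-fold rule 0 were higher and 3 lower, against 10.5% and 13.2% of all measured genes, so the lower count was near that share. The chitinase-like Chil3 had a ratio of 1.02, the lipid regulator Pparg 0.969 and the scavenger receptor Marco 1.05, all 3 chosen after their values were seen. The 3 lower members were Krt19 (435 to 237 CPM, 1.83-fold), Car4 (1.69-fold) and the fatty acid carrier Fabp4 (292 to 194 CPM, 1.51-fold), and outside the list the lipoprotein lipase gene Lpl was 1.61-fold lower (3138 to 1950 CPM). Spp1 was close to level in this gate, at 468 CPM (453 to 483) in normal and 576 CPM (548 to 605) in tumor, with a UMI in 73.0% and 72.0% of cells and a ratio of 1.05 without the largest cell of each library.

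The metallothionein genes Mt1 and Mt2 were higher in Plet1-gated cells. Wfdc17 was 6.69-fold (6.03 to 7.43) and Ier3 3.28-fold higher, at levels under 10% of those in their highest gate. Mt2 stood at 122 CPM in normal (114 to 129) and 519 CPM in tumor (492 to 546), 4.27-fold higher (3.94 to 4.63), with a UMI in 22.4% and 49.5% of cells. Mt1 was 2.5-fold higher (997 to 2492 CPM, ratio interval 2.42 to 2.58). The noncoding RNA AY036118 was 2.93-fold higher, the heme oxygenase gene Hmox1 1.87-fold (1.40-fold without its largest cells), the scavenger receptor Lrp1 1.69-fold, the amino acid transporter Slc38a2 1.69-fold, the lysosomal gene Creg1 1.59-fold and Ctsd 1.45-fold. Saa3 had a ratio of 78.1, but 98.0% of its tumor UMIs lay in 1 cell, and Slpi turned from 1.52 to 0.714 without its largest cells. Of 15 cell cycle genes 10 were at least 1.5-fold higher with a median log2 ratio of 0.65, against 10.5% of all measured genes and a median of 0.00. Mki67, the proliferation antigen, stood at 52.6 and 96.6 CPM, with a UMI in 10.3% and 17.9% of cells (3% and 5.96% after thinning, against 0.310% and 0% in the Cd79a gate). Of 21 hypoxia and glycolysis genes 8 were at least 1.5-fold higher with a median log2 ratio of 0.54.

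Of 11 heat shock genes 6 were at least 1.5-fold lower in Plet1-gated cells, against 13.2% of all measured genes, and of 15 immediate early genes 4. Hspa1b stood at 1828 CPM in normal and 253 CPM in tumor, 7.22-fold lower (6.69 to 7.79), with a UMI in 80.9% and 42.7% of cells. Hspa1a was 6.09-fold and the HSP90 gene Hsp90aa1 2.47-fold lower (1946 to 787 CPM). The signaling gene Rasgef1b was 4.48-fold lower, the immediate early factor Egr2 3.26-fold and Wdr89 2.59-fold. Secretory genes of airway epithelium were lower as well, and 5 epithelial markers summed to 3328 CPM in normal and 167.6 CPM in tumor. Single normal cells held 93.8% of the UMIs of Bpifa1, 68.2% of Scgb3a2, 62.6% of Sftpc and 51.3% of Scgb1a1. Scgb1a1 also had a UMI in 60.5% of normal and 28.4% of tumor Plet1-gated cells. Whether these came from other cells was not tested.

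Flt3-gated cells of normal lung held genes of cDC1 cells, the cross-presenting class, and of mature migratory dendritic cells, and most of these were far lower in the tumor. With 74 normal and 27 tumor cells, 291 of 1679 tested genes were called higher (17.3%) and 175 lower (10.4%); scaled to the median gene, which lay 0.23 log2 units up, the split was 206 and 239. All 9 cDC1 genes were at least 1.5-fold lower, with a median log2 ratio of -2.14, against 19.1% of all measured genes and a median of 0.28. Xcr1, the chemokine receptor that defines cDC1 cells, had 88 UMIs in 25 of 74 normal cells and 0 UMIs in 27 tumor cells. By the limit of 3 counts this allows up to 11.1% of cells with a UMI, which is no limit on cells that express the gene, and the level was at least 19.2-fold lower, with 3 counts set for a sum of 0 here and in the other such bounds. Clec9a, the cDC1 receptor for dead cells, stood at 76.5 and 7.43 CPM, Itgae at 87.4 and 7.43 CPM and Cadm1 at 83.7 and 9.28 CPM, each on 4 or 5 tumor UMIs. Of 14 mature dendritic cell genes 13 were lower with a median log2 ratio of -3.24. Ccr7 stood at 362 CPM in normal and 14.8 CPM in tumor, 24.4-fold lower (12.2 to 56.9). The share of cells with a Ccr7 UMI was 25.7% in normal (16.2 to 37.2, 19 cells) and 14.8% in tumor (4.19 to 33.7, 4 cells), with overlapping intervals. Thinned, these shares were 16.2% and 7.69%. The T cell attractants Ccl17 and Ccl22 had 356 and 244 UMIs in normal against 4 and 2 in tumor, 58.2-fold (22.5 to 215) and 79.8-fold (21.8 to 662) lower. Il12b, the p40 subunit of interleukin 12, had 258 UMIs in 9 normal cells and 0 in tumor, at least 56.2-fold lower. Cd83 was 10.3-fold lower (766 to 74.3 CPM), Hspa1b 22.1-fold and Nfkbia, the inhibitor of NF-kB, 4.27-fold (1911 to 447 CPM).

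Hypoxia and glycolysis genes were higher in the Flt3-gated tumor cells, while the list of cDC2 genes, a further class of dendritic cells, went both ways. Ifitm1 stood at 34.0 CPM in normal (22.6 to 49.1) and 2623 CPM in tumor (2488 to 2764), a ratio of 77.2 (53.2 to 117), with a UMI in 8 of 74 and 19 of 27 cells. Of 9 cDC2 genes 5 stood at least 1.5-fold higher and 4 lower, and 5 and 1 without 2 tumor cells that carried carcinoma genes, and the list summed to 2720 CPM in normal and 2534 CPM in tumor. The lectin genes Mgl2 and Clec10a were 5.16-fold (3.89 to 6.94) and 2.10-fold higher, Itgam 2.89-fold and Sirpa 2.25-fold, while the NF-kB feedback gene Tnfaip3 was 3.95-fold lower. Of the hypoxia list 20 of 21 were at least 1.5-fold higher, against 36.6% of all measured genes, with a median log2 ratio of 2.12, among them Tpi1 (35.2 to 512 CPM, 14.6-fold). The complement gene Cfp was 5.05-fold, the lectin Clec4n 9-fold and the endocytic adaptor Dab2 19.3-fold higher. Arg1 and Cxcl3 were at 0 UMIs in normal, and 1 tumor cell held 153 of the 156 Arg1 and 184 of the 202 Cxcl3 UMIs. Presumed carcinoma markers summed to 1.21 CPM in normal and 716.6 CPM in tumor, with all 5 higher. Without those 2 cells, 224 genes were called higher and 108 lower of 1591, cDC1 genes had a median log2 ratio of -1.49, MHC class II genes had a median of 0.22 in place of -0.43, and Ccr7 stood at 0.0643 of normal. Within Y-positive cells 280 genes were called higher and 111 lower, with Ccr7 at 0.219.

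**Figure D3:**
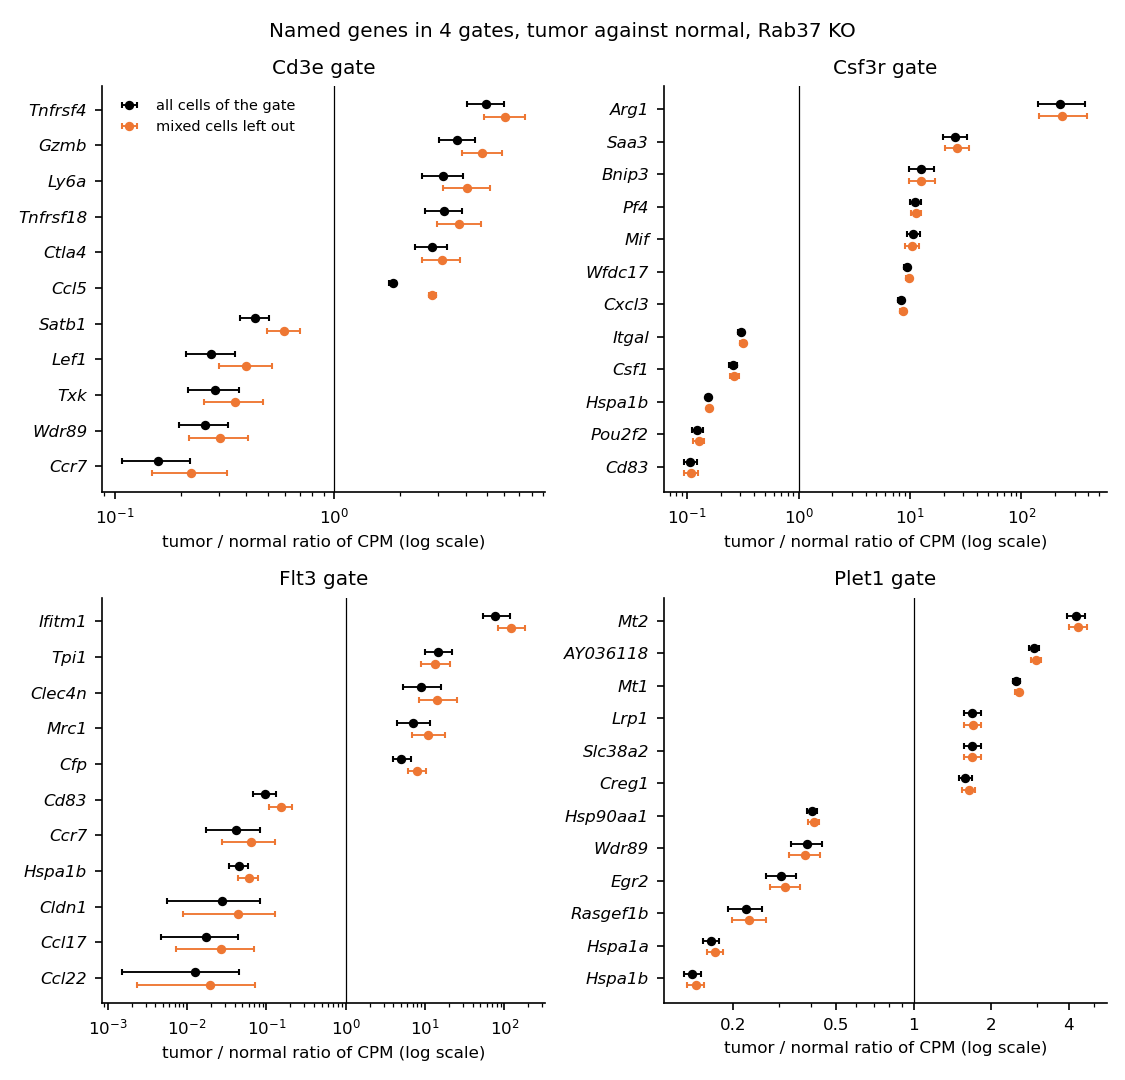
Tumor/normal ratio of genes picked from the named ones in the Cd3e, Csf3r, Flt3 and Plet1 gates, on a log axis with 95% counting intervals. Black is all gated cells and orange is with mixed cells left out. The 2 sets coincide in the Csf3r gate, where only 9 of 1558 tumor cells were left out and Arg1 stands at 222 and 229. In the Cd3e gate 15 of 79 were left out, and Wdr89 stands at 0.258 and 0.301. Arg1, at 1260 and 39.9 in that gate, is not drawn there.

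Cd3e-gated cells of the tumor were lower in naive and homing genes and higher in activation, regulatory and cytotoxic genes, with or without the mixed cells. Of 1531 tested genes, 213 were called higher (13.9%) and 46 lower (3%); scaled to the median gene, 0.23 log2 units up, the split was 168 and 72. Without 15 mixed tumor cells and 36 mixed normal cells it was 75 and 35 of 1423, and within Y-positive cells 250 and 55. All 13 naive and homing genes were at least 1.5-fold lower with a median log2 ratio of -1.20, and 10 of 13 with a median of -0.76 without mixed cells, against 17.9% and 21.6% of all measured genes. Ccr7 stood at 328 CPM in normal (315 to 340) and 51.6 CPM in tumor (35.5 to 72.4), 6.35-fold lower (4.51 to 9.25), with a UMI in 55.4% and 21.5% of cells. The naive T cell factor Lef1 was 3.62-fold lower (368 to 102 CPM), Satb1 2.29-fold and the interleukin 7 receptor gene Il7r 2.11-fold (855 to 406 CPM). Without mixed cells the ratios to normal were 0.224 for Ccr7, 0.399 for Lef1, 0.591 for Satb1 and 0.626 for Il7r. The kinase Txk was 3.5-fold and Dapl1 3.78-fold lower. Of 10 type 2 and type 17 genes 6 were lower and 1 higher, and Tmem176a was 2.95-fold lower.

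Of 14 exhaustion and activation genes 11 stood at least 1.5-fold higher and 1 lower, with or without mixed cells, against 26.8% of all measured genes. Tnfrsf9, the costimulatory receptor 4-1BB, stood at 14.7 CPM in normal and 152 CPM in tumor, 10.3-fold higher (7.79 to 13.6) and 13.9-fold without mixed cells. The checkpoint receptor genes Havcr2 and Pdcd1 were 12.0-fold (7.37 to 19.5) and 3.26-fold (2.31 to 4.51) higher, and Ctla4 2.80-fold. Pdcd1 had a UMI in 7.10% and 25.3% of cells and 1.92% and 5.06% after thinning, against at most 0.155% in the Cd79a gate. The costimulatory receptors Tnfrsf4 and Tnfrsf18, OX40 and GITR, were 4.94-fold and 3.18-fold higher. Of 10 regulatory T genes 9 were higher with a median log2 ratio of 1.80. Foxp3, their lineage factor, stood at 11.4 CPM on 90 UMIs and 46.9 CPM on 30 UMIs, with a UMI in 2.95% and 12.7% of cells (1.20% and 2.53% after thinning), and was chosen after its values were seen. Of 14 cytotoxic genes 10 were higher, 13 without mixed cells: granzyme B, Gzmb, went from 63.0 to 230 CPM (3.65-fold, 3.01 to 4.39), the chemokine Ccl5 from 2505 to 4643 CPM, and Ifng, interferon gamma, was 2.48-fold higher. The 7 NK markers summed to 306 CPM in normal and 599.9 CPM in tumor in this gate, with 5 higher, 0 lower and Ncr1 at 0 by the gate, and their part in the cytotoxic genes was not tested. With gates that were not exclusive the cytotoxic list turned, to a median log2 ratio of -0.34 from 0.82. Xcl1, the ligand of XCR1, was 5.63-fold lower (123 to 21.9 CPM, fold interval 3.34 to 10.3). The shares with a UMI of Cd4 (16.6% and 21.5%) and Cd8a (31.8% and 29.1%) had overlapping intervals, and thinned they were 5.11% and 2.53% for Cd4 and 9.74% and 8.86% for Cd8a.

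Myeloid genes topped the ranking of Cd3e-gated cells and depended on the mixed cells. Arg1 stood at 5 UMIs in normal and 511 in tumor, a ratio of 1260 that was 39.9 without mixed cells. The matrix protein gene Thbs1 was 45.7-fold higher (42.1 to 1920 CPM) and 3.69-fold without them, and Cxcl2 27.2-fold and 12.0-fold. The integrin gene Itgam was 39.5-fold and 3.63-fold higher, but it is among the genes that define mixed cells, so its fall was set by that rule. The 7 monocyte or macrophage markers summed to 604.4 CPM in normal and 1511 CPM in tumor, with 5 higher. The neutrophil markers summed to 97.2 and 167.2 CPM, with Csf3r at 0 by the gate. Hypoxia and glycolysis genes were higher for 18 of 20 with a median log2 ratio of 1.80, against 26.8% of all measured genes. Without mixed cells 13 of 20 were higher with a median of 1.03, against 24.5%.

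Cd79a-gated cells of the tumor rested on 77 cells, and fewer genes were called once 13 tumor and 26 normal mixed cells were left out. Of 1522 tested genes, 229 were called higher (15%) and 88 lower (5.78%). The split was 191 and 142 when scaled to the median gene, 0.16 log2 units up, and 112 and 22 when each cell weighed the same. Without mixed cells, which cut the tumor sum from 638526 to 242157 UMIs, it was 100 and 35 of 1421. Rhox5 and Hmga2 had 175 and 160 UMIs in tumor, in 2 cells, and 0 in normal. Arg1 stood at 1 UMI in normal and 410 in tumor, a ratio of 2193 (391 to 86810). Spp1 was 376-fold higher (227 to 674), and 53.1-fold without mixed cells. The follicular list had 11 of 12 genes lower with a median log2 ratio of -1.04 over all gated cells, against 20.5% of all measured genes. Without mixed cells 0 were lower with a median of 0.15, against 25.9% of all measured genes. MHC class II genes likewise stood at a median of -0.99 and 0.12, and Ms4a1, the CD20 gene, at 2.52-fold lower and at 0.905 of normal.

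Without mixed cells, 9 of 15 immediate early genes were at least 1.5-fold higher in the tumor's Cd79a-gated cells, against 24.1% of the 9499 genes measured there. Ppp1r10, a nuclear phosphatase regulator, stood at 55.7 and 401 CPM, 7.19-fold higher (5.56 to 9.26), and Hexim1, an inhibitor of the elongation factor P-TEFb, was 3.69-fold higher. Among the immediate early genes were Egr1 (186 to 603 CPM, 3.24-fold), Fosb (2.69-fold) and Fos (533 to 1226 CPM, 2.30-fold). The transcription factor gene Klf4 was 3.17-fold higher and Slc38a2 2.49-fold. Over all gated cells 5 of the 15 immediate early genes were at least 1.5-fold higher, against 30.5% of all measured genes, a share near the background. There Egr1 was 2.43-fold, Fosb 2.51-fold and Fos 1.74-fold higher. Jchain, the joining chain of secreted IgM and IgA, had 10279 UMIs in 24 of 646 normal cells and 1362 UMIs in 1 of 77 tumor cells, and that cell was among the mixed ones. Ighm stood at 11100 and 2936 CPM without mixed cells, a ratio of 0.264 (0.245 to 0.285), but over all gated cells the ratio was 0.492, and 1.03 within Y-positive cells. Of 11 germinal center and plasma cell genes 3 were higher and 6 lower without mixed cells, against 25.9% of all measured genes lower. Mzb1, a chaperone of antibody secretion, stood at 0.482 of normal, Cd83 at 0.496, Limd2 at 0.458 and Ly6a at 0.384. Of 15 cell cycle genes 12 were lower with a median log2 ratio of -2.06 without mixed cells, and 10 higher with a median of 1.07 over all gated cells.

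Ncr1-gated cells of the tumor were lower in heat shock genes, and most cytotoxic genes differed by less than 1.5-fold. Of 1649 tested genes, 98 were called higher (5.94%) and 36 lower (2.18%), together 8.13%, on 212 and 47 cells, and without mixed cells 39 and 32 of 1663. Hspa1b stood at 1852 CPM in normal (1771 to 1937) and 564 CPM in tumor (477 to 662), 3.29-fold lower (2.78 to 3.91), and 9 of 11 heat shock genes were at least 1.5-fold lower, against 20.9% of all measured genes. Irf8, a transcription factor of the interferon regulatory family, was 2.09-fold lower (1575 to 753 CPM, fold interval 1.81 to 2.44), the chromatin protein gene Hmgb2 2.10-fold and Hopx 2.42-fold. Of 13 cytotoxic genes 5 were at least 1.5-fold lower and 0 higher, and without mixed cells 3 lower and 1 higher, near the 22.4% of all measured genes that were lower there. Granzyme B stood at 1231 and 666 CPM (Gzmb, 1.85-fold lower), perforin at 884 and 503 CPM (Prf1, 1.76-fold lower) and granzyme A at 9970 and 6263 CPM (Gzma, 1.59-fold lower). Without mixed cells the ratios were 0.603 for Gzmb, 0.643 for Prf1 and 0.723 for Gzma, and within Y-positive cells Gzmb stood at 0.849. The share of cells with a Gzmb UMI was 74.1% in normal and 76.6% in tumor (45% and 48.9% after thinning, against at most 0.155% in the Cd79a gate). Of 15 cell cycle genes 9 were lower, with Top2a at 99 UMIs in normal and 3 in tumor, 94.9 and 11.3 CPM. The list had a median log2 ratio of -0.83, but 0.15 with gates that were not exclusive and 0.70 within Y-positive cells. Within Y-positive cells 133 genes were called higher and 96 lower.

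Among the higher genes of Ncr1-gated cells some depended on the mixed cells and others did not. Thbs1 had 4 UMIs in normal and 341 in tumor, and Cxcl3 0 and 105, at least 138-fold higher with 3 counts set for the 0. Without mixed cells Thbs1 was still 21.3-fold higher, on 85.8 CPM. Egr1 stood at 46.0 and 291 CPM, 6.33-fold higher (4.36 to 9.27) and 4.63-fold without mixed cells. Nfkbia was 2.79-fold higher (300 to 836 CPM) and 2.21-fold without mixed cells, the arginine and serine rich gene Rsrp1 2.44-fold and 2.51-fold, and Bcl2, which restrains apoptosis, 1.80-fold and 2.04-fold. Tcf7, a factor of immature NK and memory cells, was 2.15-fold higher (63.3 to 136 CPM, ratio interval 1.39 to 3.28) but at 0.737 of normal with gates that were not exclusive, and Klrg1, a receptor of mature NK cells, was 1.96-fold lower. Klrg1 had a UMI in 38.2% and 31.9% of cells, and in 11.4% and 10.6% after thinning. Of 13 NK maturation genes 1 was at least 1.5-fold higher and 3 lower, against 18.2% and 20.9% of all measured genes. The lower count was near that share, and the list had a median of -0.13 log2 units.

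A few genes differed in the same direction in every one of the 6 lineage gates. Of 755 genes tested in all of them, 7 were at least 1.5-fold higher in each of the 6 and 5 at least 1.5-fold lower, a smaller fold than that for a call, after gene classes such as ribosomal and immunoglobulin genes were set aside. The gates come from the same pair of libraries and share their free RNA, so the gates are not independent. Slc38a2, a glutamine transporter of the SNAT family (gene at chr15:96687392-96699730, minus strand, mm10), was 1.69-fold to 2.13-fold higher, and it stayed between 1.64-fold and 2.49-fold in every gate without mixed cells. Ier3, an NF-kB and stress response gene, was 1.71-fold to 19.5-fold higher, and Wfdc17 1.97-fold to 36.3-fold. The glycolysis genes Pgam1 and Eno1 were 1.77-fold to 6.05-fold and 1.78-fold to 5.29-fold higher over all gated cells, and Pgam1 had a ratio of 1.01 in the Cd79a gate without mixed cells. Arg1 was higher in all 6, with lower interval bounds from 62.2 in the Ncr1 gate to 536.6 in the Cd3e gate, and from 3.03 to 144.9 without mixed cells. Cxcl1, a neutrophil attractant, was 3.14-fold to 48.8-fold higher where normal had UMIs, but at 0.634 in the Cd3e gate without mixed cells and at 0.368 in the Plet1 gate with a second marker required. On the lower side, Wdr89 (chr12:75630596-75669537, minus strand, mm10) was 2.59-fold to 4.54-fold lower, and it stood between 0.178 and 0.379 of normal without mixed cells. Hspa1b was 2.15-fold to 22.1-fold, Hspa1a 2.14-fold to 20.9-fold and Hsph1 1.62-fold to 3.99-fold lower, but Hspa1b and Hspa1a stood at 1.25 and 1.16 in the Cd79a gate without mixed cells. Scgb1a1 was lower in all 6 gates as well, from 304 to 47.0 CPM in Csf3r-gated cells and from 504 to 23.4 CPM in Cd3e-gated cells. Of these sets, 3 of the 6 higher genes and 2 of the 4 lower genes with a RefSeq promoter held ACGTG, against 19.7% of all genes. None held TGANTCA, which 7.93% of all genes held, so that sets this small say little on it.

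**Figure D4:**
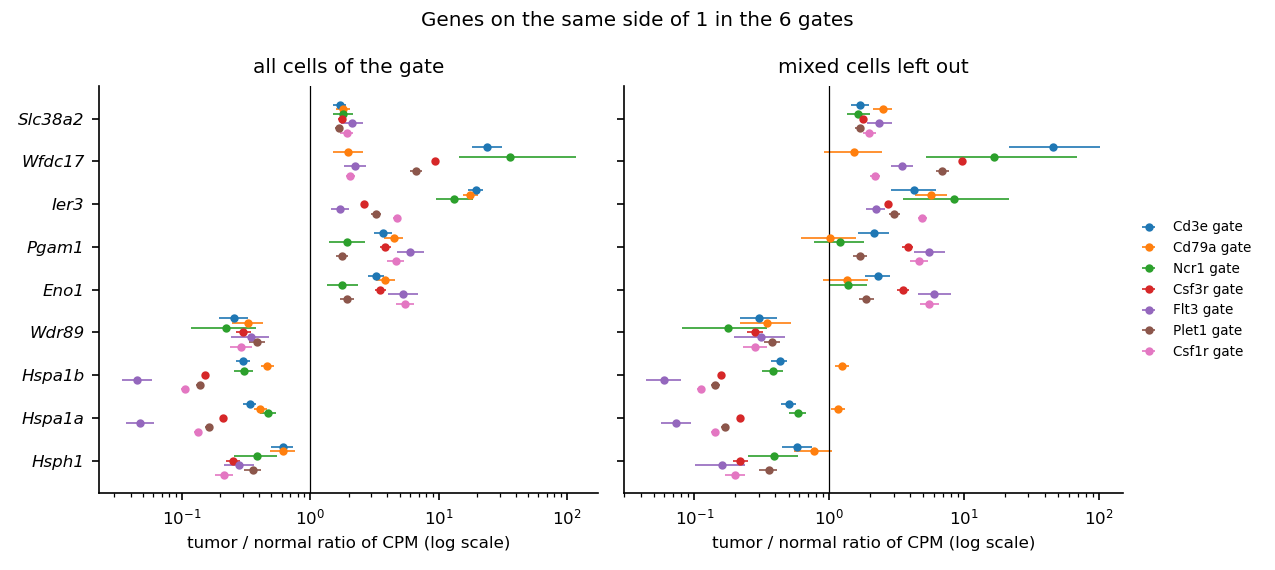
Tumor/normal ratio, on a log axis with 95% counting intervals, of 9 genes that differed in the same direction in all 6 lineage gates, drawn for 7 gates with all gated cells and with mixed cells left out; Arg1, Cxcl1 and Scgb1a1 are not drawn. Slc38a2 stays between 1.69 and 2.13 in the 6 lineage gates, while Hspa1b ranges from 0.466 in the Cd79a gate to 0.0452 in the Flt3 gate.

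The gene lists showed which groups differed in many gates and which in few. Hypoxia and glycolysis genes had medians of 1.80, 2.22, 1.04, 1.93, 2.12, 0.54 and 2.35 log2 units in the Cd3e, Cd79a, Ncr1, Csf3r, Flt3, Plet1 and Csf1r gates, and 1.03, 0.54, 0.23, 1.91, 2.18, 0.47 and 2.34 without mixed cells. The values were smaller without mixed cells in the lymphoid gates and alike in the myeloid gates. Only cells with carcinoma genes were left out of the myeloid gates: 9 tumor cells for Csf3r, 2 for Flt3, 2 for Plet1 and 3 for Csf1r. With so few left out, the Csf3r, Plet1 and Csf1r medians could hardly differ. Heat shock genes had negative medians in all 7 gates, from -0.39 in the Cd79a gate to -1.29 in the Csf1r gate, and 0.18 in the Cd79a gate without mixed cells. Immediate early genes were lower for 11 of 15 in the Csf1r gate and 13 of 15 in the Flt3 gate (10 without mixed cells), against 18.2% and 19.1% of all measured genes. They were higher for 5 of 15 in the Ncr1 gate, against 18.2% of all measured genes. Interferon response genes had a median of -0.58 in the Csf3r gate and -0.74 in the Csf1r gate and 0.83 in the Cd3e gate, where the median was 0.26 without mixed cells. Cholesterol synthesis genes were neither higher nor lower for any of 10 in the Plet1 gate, and oxidative phosphorylation genes had medians between -0.13 and 0.42 in the 7 gates, with -0.39 in the Cd79a gate without mixed cells.

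**Figure D5:**
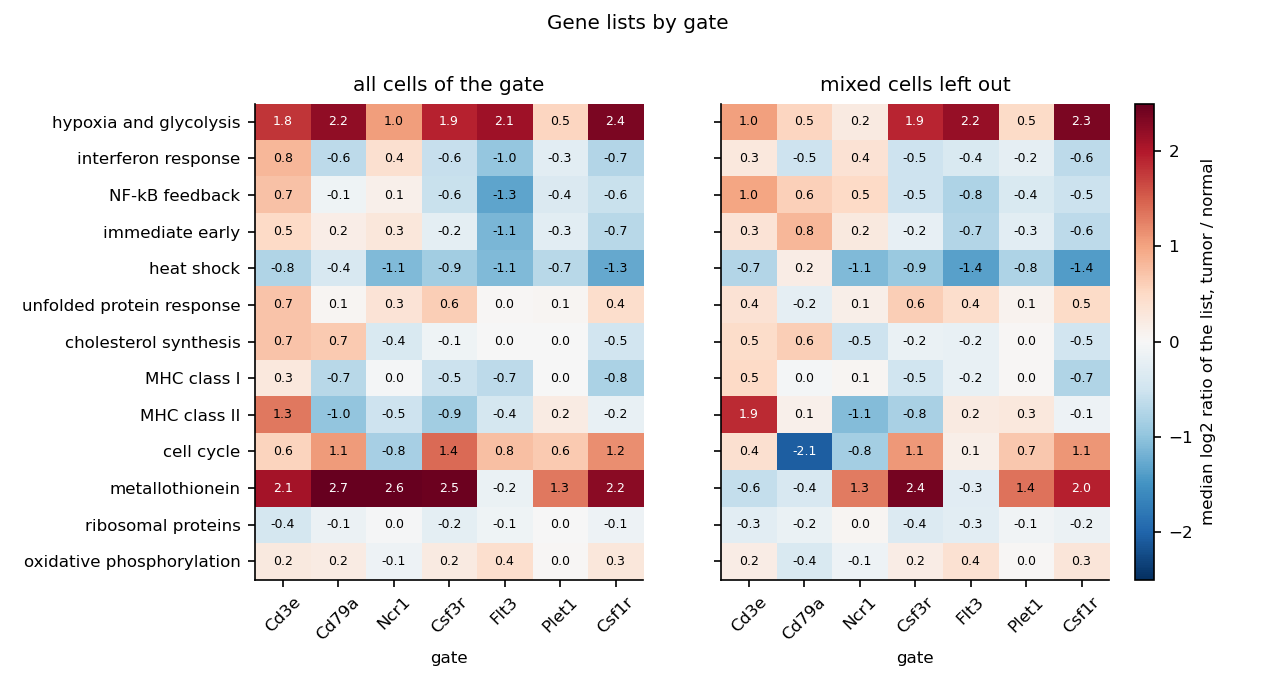
Median log2 tumor/normal ratio of 13 gene lists (rows) in 7 gates (columns), with all gated cells on the left and mixed cells left out on the right; the color scale is centered on 0. Hypoxia and glycolysis is positive in all 7 gates, from 0.54 in the Plet1 gate to 2.35 in the Csf1r gate, and heat shock is negative in all 7 with all gated cells.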

How the data were processed

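Live CD45-sorted cells were profiled with 10x Chromium 3' libraries. The authors deposited a matrix of raw UMI counts for each library. Per the file headers these matrices carry software version 3.0.1 (normal) and 3.1.0 (tumor), and per the submitters' processing notes the build was mm10. The aligner was not given in the sources used here. Of 31053 gene IDs, 30934 (99.62%) matched GENCODE, and promoters came from RefSeq. Filters of 200 genes or more and 10% mitochondrial UMIs or less left the cells that were then gated and summed per library. A gene was tested with 100 CPM in either library and 20 UMIs in all, and called at 2-fold. Lists used genes of 10 UMIs and 1.5-fold. Intervals of 95% are exact Poisson, conditional binomial or Clopper-Pearson. Python 3.11.15, numpy 2.4.6, scipy 1.17.1, pandas 2.3.3 and matplotlib 3.10.9 were used, and the scripts were tested on simulated data.

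Up to 10 genes each way were named by the interval bound nearest 1, with at least 200 CPM and 10% of that gene's highest gate level. Left out were gate genes, predicted genes, sex-linked genes and genes of mitochondria, ribosomes, hemoglobin and antigen receptors. Of each list, up to 5 members of at least 50 CPM with the largest ratios were eligible, as were genes at least 1.5-fold apart the same way in all 6 gates, Rab37, Spp1 and markers. The members and lists were chosen with earlier results of these data known. Mixed cells, defined after seeing the data, had at least 2 UMIs of Rhox5 and Hmga2 or, in the Cd3e, Cd79a and Ncr1 gates, at least 5 of Lyz2, Csf1r, Itgam and Cd68. Scrublet (scanpy 1.11.5) marked 80 normal cells (1.69%) and 4 tumor cells (0.147%). Whether the caller missed doublets in the tumor was not tested, and doublets were not removed. Alternatives covered filters, scaling, gate rules, thinning, Y-linked cells, mixed cells and the largest cell. Both WT libraries served only for side values.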

Additional observations from a re-analysis of the deposited data

Results flagged for a closer look

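For 8 combinations of gate and gene, the direction between tumor and normal lung was opposite in Rab37 KO and WT mice. Each rests on 1 library per group, and the difference between genotypes was not tested. The WT tumor library held 647 cells, and its Cd3e, Csf3r, Flt3 and Csf1r gates held 42, 233, 13 and 102. It held 0 cells with only Y-linked UMIs and 420 with only Xist, against 1666 and 33 in the KO tumor, and the part of this in the values was not tested.

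The chemokine gene Ccl4 in Cd3e-gated cells had a tumor/normal ratio of 3.95 in KO (3.37 to 4.62) and 0.131 in WT (0.0655 to 0.236), the WT value on 11 tumor UMIs. Cxcl1, a neutrophil chemokine gene, in Csf3r-gated cells had ratios of 3.24 (2.95 to 3.57) and 0.162 (0.121 to 0.214). Its relative Cxcl2 in Csf1r-gated cells had ratios of 4.195 (4.04 to 4.35) and 0.345 (0.328 to 0.363).

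In Flt3-gated cells the ratios in KO and WT were 0.0411 and 2.0 for the homing receptor Ccr7, 0.216 and 26.6 for the actin bundler Fscn1, and 0.412 and 3.67 for the interferon-induced Ifi27l2a. They were 0.342 and 2.30 for H2-Q7 and 0.468 and 4.13 for Siglech, a receptor of plasmacytoid dendritic cells. The KO value of Siglech was 2.48 within Y-positive cells and 1.17 with a gate of 2 UMIs.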

How the results depend on the processing

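Each result was recomputed under other settings. Directions and sizes held (within 1.5 times for counts of genes and list medians, within the 95% counting interval for shares and ratios) in 4919 of 7462 recomputed values, and 78 changed direction. With a floor of 50 CPM, the called genes were 297 lower over all cells, 405 higher and 76 lower for Cd3e, 489 higher and 172 lower for Cd79a, 214 higher and 108 lower for Ncr1, 233 higher and 182 lower for Csf3r, 629 higher and 316 lower for Flt3, 27 higher for Plet1 and 311 higher and 247 lower for Csf1r. With gates weighted as in normal lung, the called genes were 89 higher and 55 lower over all cells. With scaling to the median gene, the called genes were 72 lower for Cd3e and 142 lower for Cd79a. With each cell given the same weight, the called genes were 120 higher for Cd3e and 112 higher and 22 lower for Cd79a. Ratios that changed side of 1 were Rps27l 0.837 in the Cd79a gate and Ltf 1.36 and Cxcl10 1.03 in the Csf1r gate. List medians that changed sign, in log2 units, were 0.050 for interferon response and 0.12 for B activation in the Cd79a gate and -0.074 for cell cycle in the Flt3 gate. Within cells with Y-linked and no Xist UMIs, the called genes were 50 lower for Cd79a, 96 lower for Ncr1 and 111 lower for Flt3. The shares of cells were 24.5% (normal) for Cd3e, 3.53% (normal) for Ncr1, 54.4% (tumor) for Csf3r, 2.07% (normal) for Flt3 and 17.9% (normal) and 9.90% (tumor) for Plet1. Ratios that changed side of 1 were Mmp3 0, Clu 0, Hspa1b 1.13, Mcm6 0.753, Rps27l 0.995, Myc 0.913 and Ighm 1.03 in the Cd79a gate, Stmn1 1.33 in the Ncr1 gate and Ccr9 4.38 and Siglech 2.48 in the Flt3 gate. List medians that changed sign, in log2 units, were -3.16 for cell cycle in the Cd79a gate, 0.70 for cell cycle in the Ncr1 gate and -0.21 for cell cycle and 1.30 for plasmacytoid DC in the Flt3 gate. Without mixed cells, a choice made after seeing the data, the called genes were 75 higher for Cd3e, 100 higher and 35 lower for Cd79a, 39 higher for Ncr1 and 108 lower for Flt3. Ratios that changed side of 1 were Cxcl1 0.634, Klf4 0.590, Mt1 0.864 and Mt2 0.665 in the Cd3e gate, Mmp3 0, Clu 0, Hspa1a 1.16, Hspa1b 1.25, Ifitm3 0.755, H2-DMa 1.08, Mt2 0, Mt1 0.755, Rps27l 0.481 and Myc 0.990 in the Cd79a gate, Cd74 0.473 and Vegfa 0.602 in the Ncr1 gate and Cald1 0 and Igfbp4 0.799 in the Flt3 gate. List medians that changed sign, in log2 units, were 0.12 for MHC class II, -2.06 for cell cycle, -0.41 for metallothionein, 0.15 for B follicular and 0.31 for B activation in the Cd79a gate and -0.59 for metallothionein in the Cd3e gate. With Csf1r-positive cells left out of the Csf3r gate, a choice made after seeing the data, the shares of cells were 9.54% (normal) and 32.7% (tumor) for Csf3r. With a second marker required, the called genes were 22 lower for Cd79a. Ratios that changed side of 1 were Mmp3 0, Clu 0 and Myc 0.791 in the Cd79a gate, Cald1 0 and Igfbp4 0.934 in the Flt3 gate and Cxcl1 0.368 and Ifitm3 0.876 in the Plet1 gate. List medians that changed sign, in log2 units, were 0.18 for interferon response, -2.92 for cell cycle and 1.6e-05 for B activation in the Cd79a gate. With a gate of 2 UMIs, the called genes were 51 lower for Cd79a, 72 lower for Ncr1 and 11 higher for Plet1. The shares of cells were 18.4% (normal) and 2.02% (tumor) for Cd3e, 2.81% (normal) and 0.989% (tumor) for Ncr1, 10.7% (normal) and 48.3% (tumor) for Csf3r, 0.889% (normal) and 0.257% (tumor) for Flt3 and 2.94% (normal) and 5.72% (tumor) for Csf1r. Ratios that changed side of 1 were Cald1 0, Pf4 0, Vcan 0, Cxcl1 0, Ccr9 1.05 and Siglech 1.17 in the Flt3 gate and Cxcl1 0.380 and Ifitm3 0.848 in the Plet1 gate. List medians that changed sign, in log2 units, were 0.15 for plasmacytoid DC in the Flt3 gate. With gates that were not exclusive, the called genes were 387 higher and 133 lower for Cd3e, 266 higher and 131 lower for Ncr1, 166 higher and 111 lower for Flt3 and 48 higher for Plet1. The shares of cells were 30.3% (normal) and 4.76% (tumor) for Cd3e, 16.6% (normal) and 4.51% (tumor) for Cd79a, 2.35% (tumor) for Ncr1, 20.5% (normal) and 64.0% (tumor) for Csf3r, 3.09% (normal) and 2.71% (tumor) for Flt3 and 18.5% (normal) and 11.1% (tumor) for Plet1. Ratios that changed side of 1 were Gzma 0.768 in the Cd3e gate, Igha 8.59 in the Cd79a gate, Samsn1 1.17 and Tcf7 0.737 in the Ncr1 gate, Tuba1b 0.942 in the Csf3r gate and Ccl4 1.26, Egr1 1.44 and Dusp1 1.00 in the Flt3 gate. List medians that changed sign, in log2 units, were -0.12 for cholesterol synthesis, -0.14 for MHC class II and -0.34 for cytotoxic in the Cd3e gate, 0.15 for cell cycle in the Ncr1 gate and -0.23 for cell cycle in the Csf3r gate. After thinning every cell to 1000 UMIs, the shares of cells were 11.0% (normal) and 1.27% (tumor) for Cd3e, 12.7% (normal) for Cd79a, 2.17% (normal) and 0.782% (tumor) for Ncr1, 9.17% (normal) and 35.7% (tumor) for Csf3r, 0.322% (normal) and 0.298% (tumor) for Flt3, 5.89% (tumor) for Plet1 and 4.46% (normal) and 6.78% (tumor) for Csf1r. Without the cell with most UMIs, ratios that changed side of 1 were Mmp3 0 and Myc 0.655 in the Cd79a gate.

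Counts of called genes stayed within 1.5 times when Scrublet doublets were removed, with mitochondrial UMIs at most 5% and with at least 500 genes per cell, and over all cells without those with Rhox5 or Hmga2 UMIs, a setting added after seeing the data. Shares of cells, recomputed among these only without Scrublet doublets, stayed within their intervals. Without the cells with Rhox5 or Hmga2 UMIs, however, 64 gene ratios over all cells moved out of their counting intervals and 21 stayed. Single-library groups left no replicate to leave out. No paired analysis was possible because each group is 1 library. Except where the setting itself takes out cells or genes, the cause was not tested. The Flt3, Ncr1, Cd79a and Cd3e gates held 27, 47, 77 and 79 tumor cells, and intervals cover counting error alone.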
